A study of Homo sapiens with 65 samples.

Results

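The 32 genes described here encode enzymes of cholesterol and fatty acid synthesis and their regulators. They were followed in 65 RNA-seq libraries of human left-ventricular cardioid cultures. Cardioids are heart-like aggregates, here grown from WTC-11, an induced pluripotent stem cell line. The genes were taken by name from a deposited table of 58735 genes. The sterol branch holds 23 of them (18 enzymes and 5 regulators or partners) and the fatty acid branch holds 9. The sterol genes were picked because their counts fell at day 4.5 in both arms of the study, so their day 4.5 differences are given as a description and not as a result of a test.

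The study interfered with hyaluronan, a sugar polymer of the extracellular matrix, by genotype and by enzyme. The genotype arm (41 libraries) set cultures of wild-type lines (WT) beside those of clones labelled HAS2-KO (KO, for the hyaluronan synthase gene HAS2). They were taken at day 1.5 (5 WT and 6 KO), day 2.5 (6 and 6), day 4.5 (6 and 6) and day 7.5 (3 and 3). In the enzyme arm (24 libraries, 3 per group), wild-type cardioids were left untreated or given hyaluronidase, which cuts hyaluronan. Treatment called HAse1.5 started at day 1.5, with libraries of days 2.5, 4.5 and 7.5. That called HAse2.5 started at day 2.5, with libraries of days 4.5 and 7.5. The sample titles give each treatment as a span up to the day of collection. Within each, the length of treatment and the day therefore cannot be told apart. From day 2.5 on every library pooled 8 cardioids, while libraries of day 1.5 came from cells not yet aggregated. All groups shared a defined medium that held albumin and concentrated lipids. The KO libraries came from clones cl4 (several libraries), cl14, cl46 and cl51, the WT libraries from lines WT, WT_TU, cl43_WT_UT and TNT2, and replicates 1, 2 and 3 of the enzyme arm from lines TNNI1, WT and TNNT2. Cells grew flat in an induction medium with FGF2, LY294002, Activin A, BMP4 and CHIR99021 until day 1.5. They were then dissociated and reseeded as aggregates in patterning media, and later moved to cardiomyocyte media. Day and medium therefore cannot be told apart, nor can day 1.5 and flat growth.

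Cholesterol is built from acetyl-CoA through the mevalonate pathway, squalene and lanosterol, and fatty acids from malonyl-CoA by fatty acid synthase, followed by elongases and desaturases. Both branches are switched on by the SREBP transcription factors (genes SREBF1 and SREBF2), which are held in the endoplasmic reticulum by INSIG proteins when sterol is plentiful and are cut and sent to the nucleus when it is scarce. Their promoters typically combine a sterol response element with sites for the factors NF-Y and Sp1, and cells given lipids from the medium rely less on their own synthesis.

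The promoters of 28 of the 32 genes were found in RefSeq (GRCh38.p14, 250 bases before to 50 after the start), and 4 of them are shown because the later results turn on these genes and because they carry the motifs in different arrangements. HMGCS1 (chr5:43313363-43313662, minus strand) stands for the enzymes, INSIG1 (chr7:155297628-155297927, plus strand) for the regulators, SCD (chr10:100346983-100347282, plus strand) for the fatty acid branch and SREBF2 (chr22:41832855-41833154, plus strand) for the 1 promoter with a match to the sterol response element. Capitals mark CCAAT (or ATTGG on the other strand), the NF-Y motif, and TCACNCCAC, the core of the sterol response element.
HMGCS1: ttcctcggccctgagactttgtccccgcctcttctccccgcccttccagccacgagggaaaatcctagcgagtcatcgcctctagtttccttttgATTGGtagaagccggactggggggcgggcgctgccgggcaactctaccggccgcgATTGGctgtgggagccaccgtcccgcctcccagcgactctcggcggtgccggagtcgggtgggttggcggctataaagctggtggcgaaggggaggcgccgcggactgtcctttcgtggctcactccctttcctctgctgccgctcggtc
INSIG1: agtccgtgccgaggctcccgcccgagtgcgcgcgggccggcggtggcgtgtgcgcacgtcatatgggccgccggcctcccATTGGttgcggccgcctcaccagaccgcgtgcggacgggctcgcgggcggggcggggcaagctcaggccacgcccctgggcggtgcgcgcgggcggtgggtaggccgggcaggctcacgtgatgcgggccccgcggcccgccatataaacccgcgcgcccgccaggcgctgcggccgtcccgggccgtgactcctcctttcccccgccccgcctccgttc
SCD: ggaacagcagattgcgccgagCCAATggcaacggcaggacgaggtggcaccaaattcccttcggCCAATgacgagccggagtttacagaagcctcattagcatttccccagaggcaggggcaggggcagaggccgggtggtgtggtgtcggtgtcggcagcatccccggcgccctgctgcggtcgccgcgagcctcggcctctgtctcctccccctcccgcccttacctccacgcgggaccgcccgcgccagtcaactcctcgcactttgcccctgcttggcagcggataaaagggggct
SREBF2: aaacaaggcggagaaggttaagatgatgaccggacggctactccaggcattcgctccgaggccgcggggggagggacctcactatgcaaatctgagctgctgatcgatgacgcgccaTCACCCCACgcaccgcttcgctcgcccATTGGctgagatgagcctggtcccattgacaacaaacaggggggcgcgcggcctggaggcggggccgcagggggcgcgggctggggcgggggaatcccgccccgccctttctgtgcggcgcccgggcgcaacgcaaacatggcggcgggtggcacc

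On both strands of these windows, CCAAT occurred in 16 of 20 sterol promoters (80%) and in 4 of 8 fatty acid promoters (50%), against 34.6% of all 35116 promoters of the same length. GGGCGG, the Sp1 motif, occurred in 19 of 20 sterol promoters (95%) and 6 of 8 fatty acid promoters (75%), against 45% of all promoters and 56.3% of those of protein-coding genes. TCACNCCAC occurred in 1 of 20 sterol promoters (SREBF2, at base -133 from the start) and in 0 of 8 fatty acid promoters, against 1.13% of all. HMGCS1 and SCD each held CCAAT at 2 places, 100 and 155 bases before the start in HMGCS1 and 186 and 229 before it in SCD. Neighbouring GGGCGG matches overlap by their end bases in INSIG1 (at -126 and -121) and in SREBF2 (at -10 and -5). A match here is a run of letters, not a measured binding site.

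Total counts per library ran from 831062 to 3574843 (median 1570954), and values below are CPM (read counts scaled to a common library size) after TMM scaling within each arm. Of the 32 genes, 31 passed the filter on low counts in each arm. CYP51A1, lanosterol demethylase, did not: it lay between 0 and 0.66 CPM, and 79.4% of its exon bases are shared on the same strand with overlapping gene models. The 10 libraries of the earliest library numbers (block A: the first libraries of WT, WT_TU and cl4) stood apart. In WT their 2 libraries lay wholly above or wholly below all other WT libraries for 27, 21 and 22 of 31 member genes at days 1.5, 2.5 and 4.5, and the same held for 59%, 54.3% and 54.8% of all genes tested. In WT at day 2.5, FADS2 was at 608 and 706 CPM in block A and 251 to 282 elsewhere, and HSD17B7 at 0.599 and 1.81 against 10.6 to 19.6. Values without block A are therefore given beside the genotype results. HAS2 itself did not separate the labels: it was at 359 to 827 CPM in WT and 417 to 785 in KO at day 2.5, with log2 differences between -0.26 and 0.18 over the 4 days (edgeR quasi-likelihood test, Benjamini-Hochberg adjusted p 0.77 to 1). The position of the alteration is not given in the sources used here, so a 3′ count may not see it. Cardiomyocyte markers (8 genes summed, such as TNNT2 and MYL7) rose from 51.2 to 128 CPM in WT at day 1.5 to 53600 to 63200 at day 7.5.

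**Figure D1:**
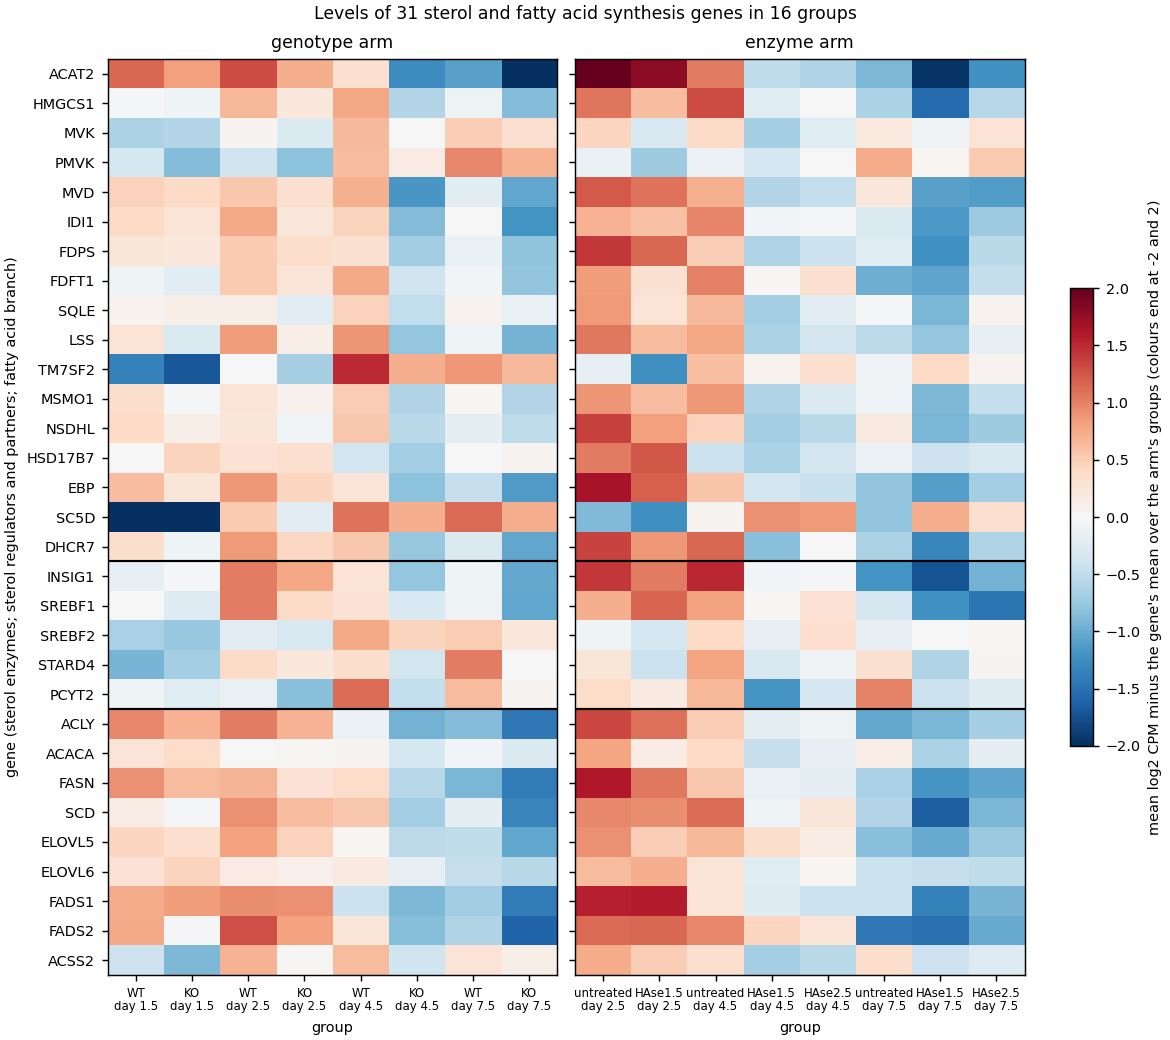
Mean log2 CPM of 31 genes in the 16 groups (columns), each gene minus its mean over the groups of its arm; rows are ordered as sterol enzymes, sterol regulators and partners, and fatty acid genes, parted by black lines. Blue columns stand, among others, at KO day 4.5 and at both hyaluronidase groups of day 4.5, and SC5D runs against the other sterol enzymes in the treated groups. Low values are not particular to day 4.5: the sterol enzyme mean was lowest at day 7.5, in KO and in HAse1.5 of their arms. In KO, the means of days 4.5 and 7.5 overlapped.

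In unperturbed cultures some sterol genes rose between day 1.5, before aggregation, and day 2.5. Between day 1.5 and day 2.5 of WT, 8 of 22 tested sterol genes rose and 0 fell, with a median log2 change of 0.43 and negative fitted values in 4 that did not pass (PMVK, MSMO1, NSDHL and PCYT2), while 15% of all 13797 genes tested rose (edgeR quasi-likelihood test, adjusted p under 0.05 after Benjamini-Hochberg) and the median of all genes was 0.01. SC5D, sterol-C5-desaturase, which acts near the end of cholesterol synthesis, moved furthest. Its 5 WT libraries of day 1.5 stood at 52.3, 66.4, 41.3, 28.4 and 49.5 CPM, and its 6 of day 2.5 at 216 to 363 CPM (median 262). No library of day 1.5 reached the lowest of day 2.5, and the fitted log2 change was 2.52 ± 0.27 (SE, adjusted p = 8.32e-10, edgeR). STARD4, a carrier of cholesterol between membranes, TM7SF2, a C14-sterol reductase, INSIG1 and SREBF1 rose by 1.35, 1.34, 1.15 and 1.08 on the log2 scale, HMGCS1, MVK and FDFT1 by 0.66, 0.66 and 0.61. In the fatty acid branch 2 of 9 rose, ACSS2 by 1.10 ± 0.25 (adjusted p = 0.000749, edgeR) and SCD by 0.72 ± 0.28 (adjusted p = 0.0443, edgeR). The call of SCD was lost without WT_R1 or WT_TU_R1 of day 2.5, or WT_R2, cl43_WT_UT or TNT2 of day 1.5. ACSS2 makes acetyl-CoA from acetate and SCD puts the first double bond into saturated fatty acids. Without block A the counts were 12 of 22 and 4 of 9, beside 32.8% of all genes called in either direction. Among 44 other tested genes of the pathway 13 rose and 2 fell, and the largest of these changes was in ABCG1, a sterol exporter, which had 0 CPM in all 5 WT libraries of day 1.5 and 6.17 to 14.1 CPM at day 2.5.

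From day 2.5 to day 4.5 in WT, sterol genes moved both ways and fatty acid genes that passed fell. The branches were not tested against each other. Of 22 sterol genes, 6 rose and 3 fell (median 0.14), beside 18.6% of all genes that rose and 15.9% that fell. TM7SF2, PCYT2 (an enzyme of phosphatidylethanolamine synthesis), PMVK, SREBF2, SC5D and MVK rose, TM7SF2 by 1.53 ± 0.25 on the log2 scale (adjusted p = 3.73e-06, edgeR). ACAT2, which joins the first 2 acetyl units, fell by 0.99 ± 0.20 (adjusted p = 0.000129), SREBF1 by 0.75 and EBP, the sterol isomerase, by 0.63. In the fatty acid branch 0 rose and 4 of 9 fell (median -0.36): FADS1, the delta-5 desaturase, by 1.35 ± 0.17 (adjusted p = 1.87e-08, edgeR), ACLY by 1.15, FADS2 by 1.10 and ELOVL5 by 0.76. FADS1 stood at 749 to 1306 CPM (median 1166) at day 2.5 and 285 to 583 (median 440) at day 4.5, without overlap. Without block A the counts were 9 of 22 sterol and 4 of 9 fatty acid genes in either direction, beside 38.1% of all genes, and SC5D no longer passed (log2 change 0.30, against 0.64 with every library). Its call was lost in 7 of 17 alternatives. ACSL1, which activates long-chain fatty acids, was the called pathway gene with the largest change (3.36 ± 0.51 on the log2 scale, adjusted p = 1.37e-06, edgeR). The day 4.5 libraries are also part of the contrast on which the sterol genes were picked.

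The same step in untreated cardioids of the enzyme arm gave 2 sterol genes that rose (SC5D and SREBF2) and 5 that fell (ACAT2, FDPS, NSDHL, HSD17B7 and EBP), with a median of 0.03, beside 12% of genes that rose and 11.1% that fell. HSD17B7, a 3-ketosteroid reductase, moved furthest, by -1.69 ± 0.57 (adjusted p = 0.0334, edgeR), and was at 9.66, 11.3 and 18.9 CPM at day 2.5 and 2.04, 3.43 and 6.68 at day 4.5. Leaving out 1 library at a time gave 3 to 6 of the 7 sterol calls, with 3 left without replicate 3 of day 2.5 and 4 without replicate 1 or replicate 2 of day 4.5. In the fatty acid branch FADS1 (-1.30 ± 0.16), FASN (-1.06 ± 0.19) and ACLY (-0.86 ± 0.27) fell, and 0 rose. ACSL1 was again the called pathway gene with the largest change (2.82 ± 0.58, adjusted p = 0.000987, edgeR). The 2 arms were made and scaled apart, so only the directions are set side by side. The untreated libraries of day 4.5 also belong to the contrast on which the sterol genes were picked. The sterol counts and calls of this step are therefore a description.

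From day 4.5 to day 7.5 genes of both branches fell. In WT 3 sterol genes fell, ACAT2 by 1.44 ± 0.27 (adjusted p = 0.000863, edgeR), MVD by 0.93 and FDFT1 by 0.81, and 1 fatty acid gene, FASN, by 1.30 ± 0.29 (adjusted p = 0.00672, edgeR), beside 1.44% of all genes that fell. Fatty acid synthase (FASN) was at 584 to 983 CPM (median 742) at day 4.5 and at 313, 290 and 335 at day 7.5, without overlap. Without WT_R2 of day 7.5 these counts were 1 and 0, and without block A they were 8 and 4, beside 3.09% of genes. In untreated cardioids 10 of 22 sterol genes and 6 of 9 fatty acid genes fell (medians -0.76 and -1.20) beside 2.93% of all 12748 genes tested. The WT and untreated libraries of day 4.5, from which these falls are measured, belong to the contrasts on which the sterol genes were picked, so the sterol counts are a description. INSIG1, the SREBP anchor, stood at 98.1, 148 and 116 CPM at day 4.5 and at 14.1, 33.0 and 10.5 at day 7.5, a log2 change of -2.61 ± 0.43 (adjusted p = 0.000932, edgeR). HMGCS1, the enzyme that makes HMG-CoA, went from 756, 762 and 734 CPM to 202, 308 and 120. FADS2, the delta-6 desaturase, went from 142, 165 and 184 CPM to 27.28, 56.76 and 16.97 (log2 change -2.25 ± 0.43, adjusted p = 0.00393, edgeR). Without replicate 1 of day 7.5 the sterol count was 6. Mitochondrial counts were 0.452% to 0.554% of the total in untreated libraries of day 4.5 and 0.902% to 2.39% at day 7.5, without overlap, and their part in these falls was not tested.

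**Figure D2:**
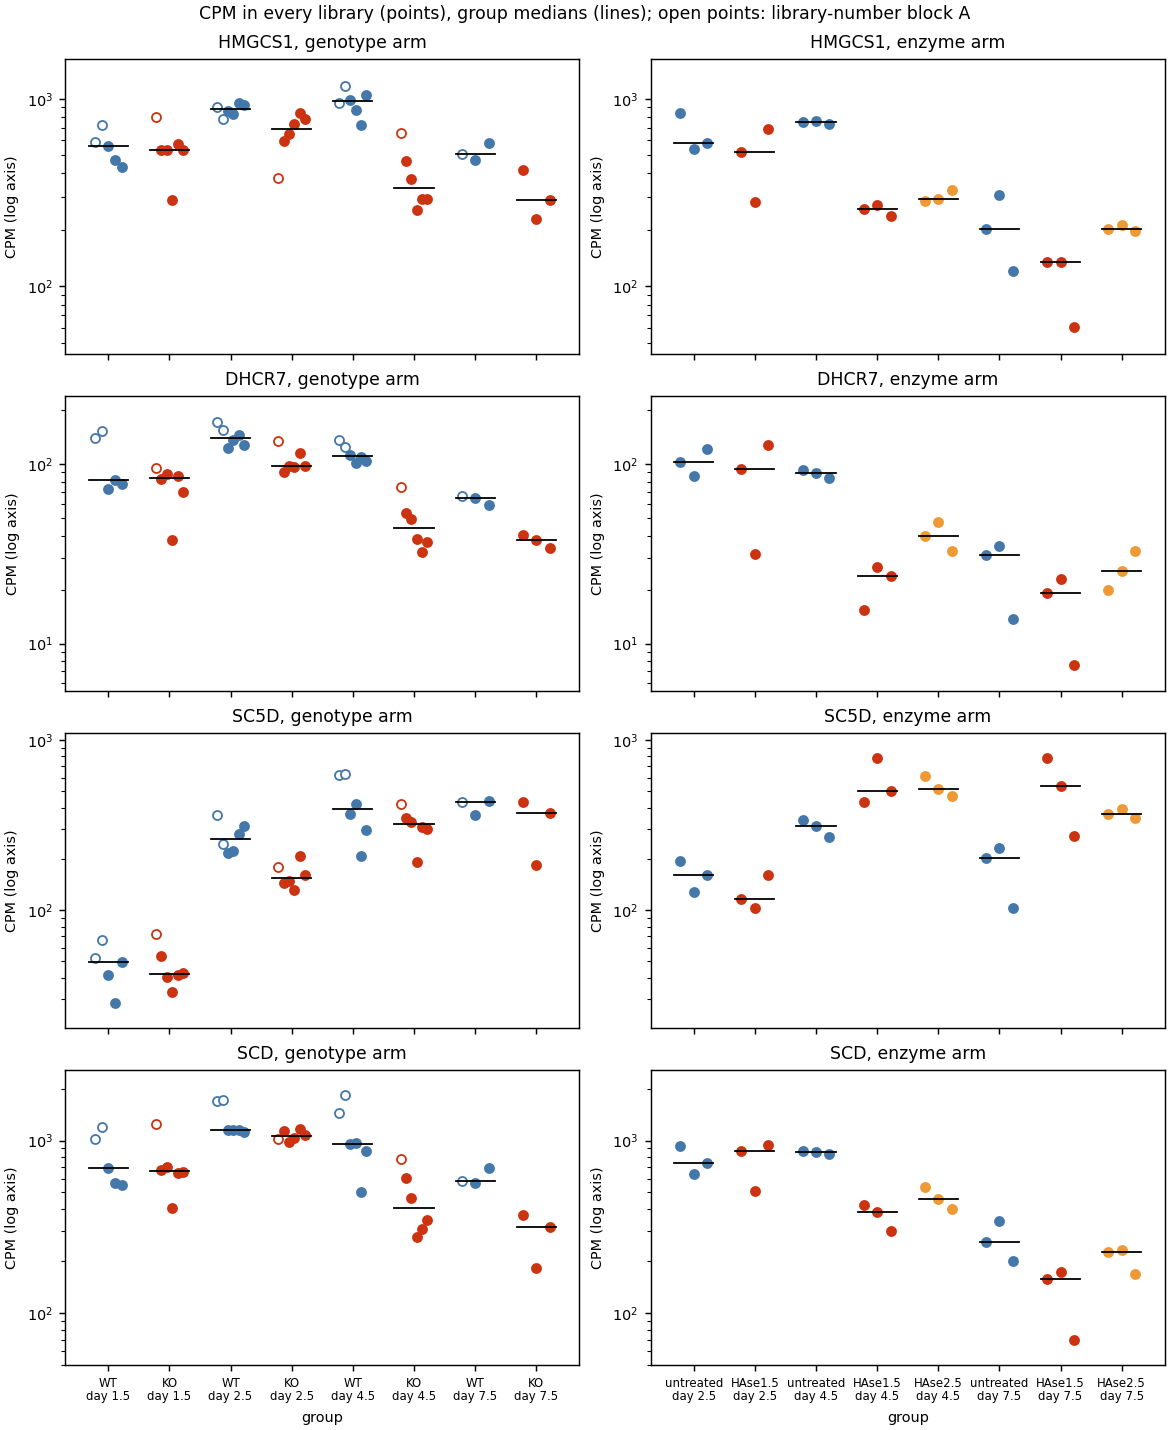
CPM (log axis) of HMGCS1, DHCR7, SC5D and SCD in every library of the 16 groups; points are libraries, lines are group medians, and open points mark block A. SC5D climbs from 28.4 to 66.4 CPM in WT at day 1.5 to 216 to 363 at day 2.5, and in the enzyme arm it alone of the 4 genes is higher in both hyaluronidase groups than in untreated cardioids at days 4.5 and 7.5.

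At day 1.5, before aggregation, no difference between KO and WT was detected in either branch. Of the members, 0 of 22 sterol and 0 of 9 fatty acid genes passed the test (edgeR, Benjamini-Hochberg), as did 0% of all 13797 genes. At an unadjusted p under 0.05 there were 3 sterol and 2 fatty acid genes, beside 4.28% of all genes (591 of 13797), and DESeq2 called 0 of both. The medians were -0.13 and -0.16. HMGCS1 was at 585, 725, 563, 472 and 435 CPM in WT and at 289 to 797 (median 534) in KO, and its 95% interval of the log2 difference ran from -0.47 to 0.41.

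At day 2.5, 1 day after reseeding, every tested member was lower in KO by its fitted value, though no single gene passed the test. The fitted log2 difference was negative in 22 of 22 sterol genes (median -0.36) and in 9 of 9 fatty acid genes (median -0.34), while 49.2% of all genes were negative and their median was 0.01. Neither branch held a called gene, beside 0.993% of all genes called in either direction, and DESeq2 called 0 as well. At an unadjusted p under 0.05 there were 8 sterol genes and 1 fatty acid gene, beside 10.5% of all genes. These genes share libraries, so their number does not count independent measurements. In 2 sterol genes, SC5D and PCYT2, and in ACSS2 every KO library lay below every WT library, which held for 0.841% of all genes. SC5D was at 216 to 363 CPM in WT (median 262) and 131 to 208 in KO (median 154), a log2 difference of -0.76 ± 0.23 (adjusted p = 0.13, edgeR). ACSS2 was at 33.4 to 56.4 CPM in WT (median 42.2) and 19.9 to 32.05 in KO (median 28.1), a log2 difference of -0.69 ± 0.24 (adjusted p = 0.187, edgeR). DHCR7, which makes cholesterol in the last step of its route, was at 123 to 171 CPM in WT (median 141) and 90.2 to 134 in KO (median 97.9), and INSIG1 at 73.4 to 150 (median 125) and 85.9 to 129 (median 97.1), both with overlap.

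At day 2.5 the members were also compared within each set of library numbers. Lower values in KO were found in 15 of 22 sterol genes in block A (1 KO and 2 WT libraries). They were found in 18 in block B (1 and 2) and 22 in block C (4 and 2), with medians of -0.56, -0.32 and -0.45. In the fatty acid branch 7, 8 and 9 of 9 were lower. The share of all genes that were lower within each block is not given here, so these counts are a description. Without block A the medians were -0.37 and -0.22 and 0 members passed, beside 1.9% of all genes. HACD1, a dehydratase of very long fatty acid elongation that is abundant in muscle, was the 1 other pathway gene that passed, at 21.8 to 60.0 CPM in WT and 12.5 to 17.9 in KO (log2 difference -1.41 ± 0.28, adjusted p = 0.004, edgeR). Of 8 cardiomyocyte markers 3 were lower in KO (TNNT2, MYH6 and MYL7) and 5 did not pass (median of all -1.48), and their sum was 364 to 2680 CPM in WT and 711 to 1610 in KO. Of 4 early mesoderm markers 2 (MESP1 and MIXL1) were higher in KO, and their summed level was 47.1 to 97.1 CPM in WT and 90 to 146 in KO. The KO library cl4_R1 of day 2.5 had the fewest counts of the series. Whether cell makeup or depth has a part in the members' values was not tested, and in pooled cardioids fewer cells of a type and less RNA per cell cannot be told apart.

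At day 4.5 the sterol genes were chosen for their fall, and their values are given as a description. In KO, 15 of 22 had an adjusted p under 0.05 and a lower value (median -1.06), beside 2.6% of all genes that were lower. Ordered by adjusted p, the members just inside this threshold were TM7SF2 (-0.84, adjusted p = 0.0414) and INSIG1 (-1.04, adjusted p = 0.0379), and just outside it lay MVK (-0.65, adjusted p = 0.086) and STARD4 (-0.77, adjusted p = 0.128, all edgeR). MVD, which makes isopentenyl diphosphate, stood at 60.5 to 69.4 CPM in WT (median 64.6) and 12.6 to 26.5 in KO (median 16.2), without overlap. HMGCS1 was at 726 to 1163 CPM (median 971) and 255 to 655 (median 333), and DHCR7 at 102 to 136 (median 111) and 32.5 to 74.8 (median 44.1). Squalene epoxidase, SQLE, a flux-controlling enzyme, was at 215 to 365 CPM (median 307) and 96.1 to 222 (median 167), so the groups touched. INSIG1 was at 30.3 to 108 CPM (median 86.4) and 19.6 to 65.2 (median 31.7), with overlap. SREBF2, which encodes the main driver of the sterol genes, had a log2 difference of -0.29 ± 0.17, at 152 to 197 CPM in WT and 96.9 to 192 in KO.

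The fatty acid branch was not picked on this contrast and was tested: 4 of 9 genes fell in KO and 0 rose (median -0.84). SCD stood at 501 to 1833 CPM in WT (median 961) and 274 to 779 in KO (median 407), and its log2 difference was -1.24 ± 0.27 (adjusted p = 0.00408, edgeR). The ranges overlapped. FASN stood at 584 to 983 CPM (median 742) and 327 to 447 (median 418), without overlap (-0.94 ± 0.23, adjusted p = 0.0109). ACSS2 stood at 26.9 to 57.9 CPM (median 45.2) and 12.6 to 28.5 (median 20.2), with a log2 difference of -1.08 ± 0.24 (adjusted p = 0.00592, edgeR), and the lowest WT library lay below the highest KO library. ACLY, which makes cytosolic acetyl-CoA from citrate for both branches, fell by 0.84 ± 0.24 (adjusted p = 0.041), a call kept in 9 of 18 alternatives. The elongases ELOVL5 (-0.53) and ELOVL6 (-0.34), ACACA (-0.46), FADS1 (-0.51) and FADS2 (-1.20) did not pass. Without block A, 8 of 9 fatty acid genes fell, all but ELOVL5, and 16 sterol genes were lower, beside 3.35% of all genes. FADS1 then differed by -0.72 ± 0.09 (adjusted p = 8.76e-07, edgeR), against -0.51 ± 0.16 (adjusted p = 0.0706) with every library. Its WT values at day 4.5 were 285 and 287 CPM in block A and 438 to 583 in the other 4 libraries, and its KO values 251 to 325.

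Other genes of the pathway were counted as a list. Of 44 tested, 5 fell in KO at day 4.5 and 0 rose (median -0.19), beside 2.6% of all 13797 genes that were lower. Among them were TMEM97, a sterol-regulated membrane protein, and NPC1, which carries cholesterol out of lysosomes (-1.06 and -0.80 on the log2 scale). HACD1, another of them, had the largest change of these 5, -1.56 ± 0.25 on the log2 scale (adjusted p = 0.000119, edgeR). SLC25A1, which did not pass, had a larger fitted value (-1.63 ± 0.50, adjusted p = 0.0552, edgeR). Cardiomyocyte markers stood at 27000 to 56500 CPM in WT and 14100 to 39300 in KO, with 3 of 8 lower and 0 higher, and cell cycle markers (8 genes such as MKI67 and TOP2A) at 417 to 1570 and 666 to 1600, with 1 of 8 lower. Their part in the lipid genes' fall was not tested.

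At day 7.5 the fitted value was lower in KO in every fatty acid gene and in 21 of 22 sterol genes (medians -0.48 and -0.68), and none passed the test. The share of all genes with a negative fitted value at this day is not given here, so these counts by sign are a description. Beside 0.348% of all genes called in either direction, both branches had 0 by edgeR and 0 by DESeq2, with 10 sterol and 2 fatty acid genes at an unadjusted p under 0.05 against 5.53% of all genes. All 3 KO libraries lay below all 3 WT libraries in 13 of 22 sterol and 5 of 9 fatty acid genes, against 8.99% of all genes. No member lay wholly above, against 7.72% of all genes. The KO libraries of this day were cl4_R2, cl4_R3 and cl14_R1, and the WT libraries WT_R1, WT_R2 and WT_TU_R2. Libraries of the same clone or line are not independent, and clones cl46 and cl51 had none here. DHCR7 stood at 66.6, 65.2 and 59.4 CPM in WT and 40.5, 37.6 and 34.2 in KO, a log2 difference of -0.76 ± 0.28 (adjusted p = 0.531, edgeR). SCD stood at 580, 571 and 695 CPM and at 372, 181 and 313 (-1.09 ± 0.38, adjusted p = 0.408), and FDPS at 198, 192 and 251 and at 149, 129 and 121 (-0.68 ± 0.24, adjusted p = 0.421). SC5D and ACSS2, which did not overlap at day 2.5, overlapped here: ACSS2 was at 31.2, 24.5 and 40.0 CPM in WT and 33.4, 37.1 and 18.1 in KO.

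Without block A, 2 sterol genes passed at day 7.5, FDPS (-0.74 ± 0.18, adjusted p = 0.0309) and FDFT1 (-0.68 ± 0.18, adjusted p = 0.0471), and 1 fatty acid gene, FADS1 (-0.77 ± 0.13, adjusted p = 0.000158, all edgeR), beside 1.06% of all genes in either direction. FADS1 stood at 310, 342 and 361 CPM in WT and 222, 206 and 192 in KO, without overlap. Library numbers and genotype were not balanced at this day, since WT came from blocks A, B and B and KO from B, C and C. Within block B (1 KO and 2 WT) 19 of 22 sterol genes were lower with a median of -0.32, and 7 of 9 fatty acid genes with a median of -0.34. The share of all genes that were lower within block B is not given here. Cell cycle markers were at 524 to 847 CPM in WT and 182 to 301 in KO, with 1 of 8 passing the test (median -1.53), whereas cardiomyocyte markers lay close, at 53600 to 63200 and 51700 to 60400. The part of the cell cycle difference was not tested. The change of the KO difference from day 2.5 to day 7.5 had a median of -0.24 in the sterol branch and -0.18 in the fatty acid branch. No member passed by edgeR, where 0.268% of all genes did, and 0 by DESeq2. At an unadjusted p under 0.05 there were 0 sterol genes and 1 fatty acid gene, beside 6.16% of all genes. Its day 7.5 side rests on the same few clones and lines.

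**Figure D3:**
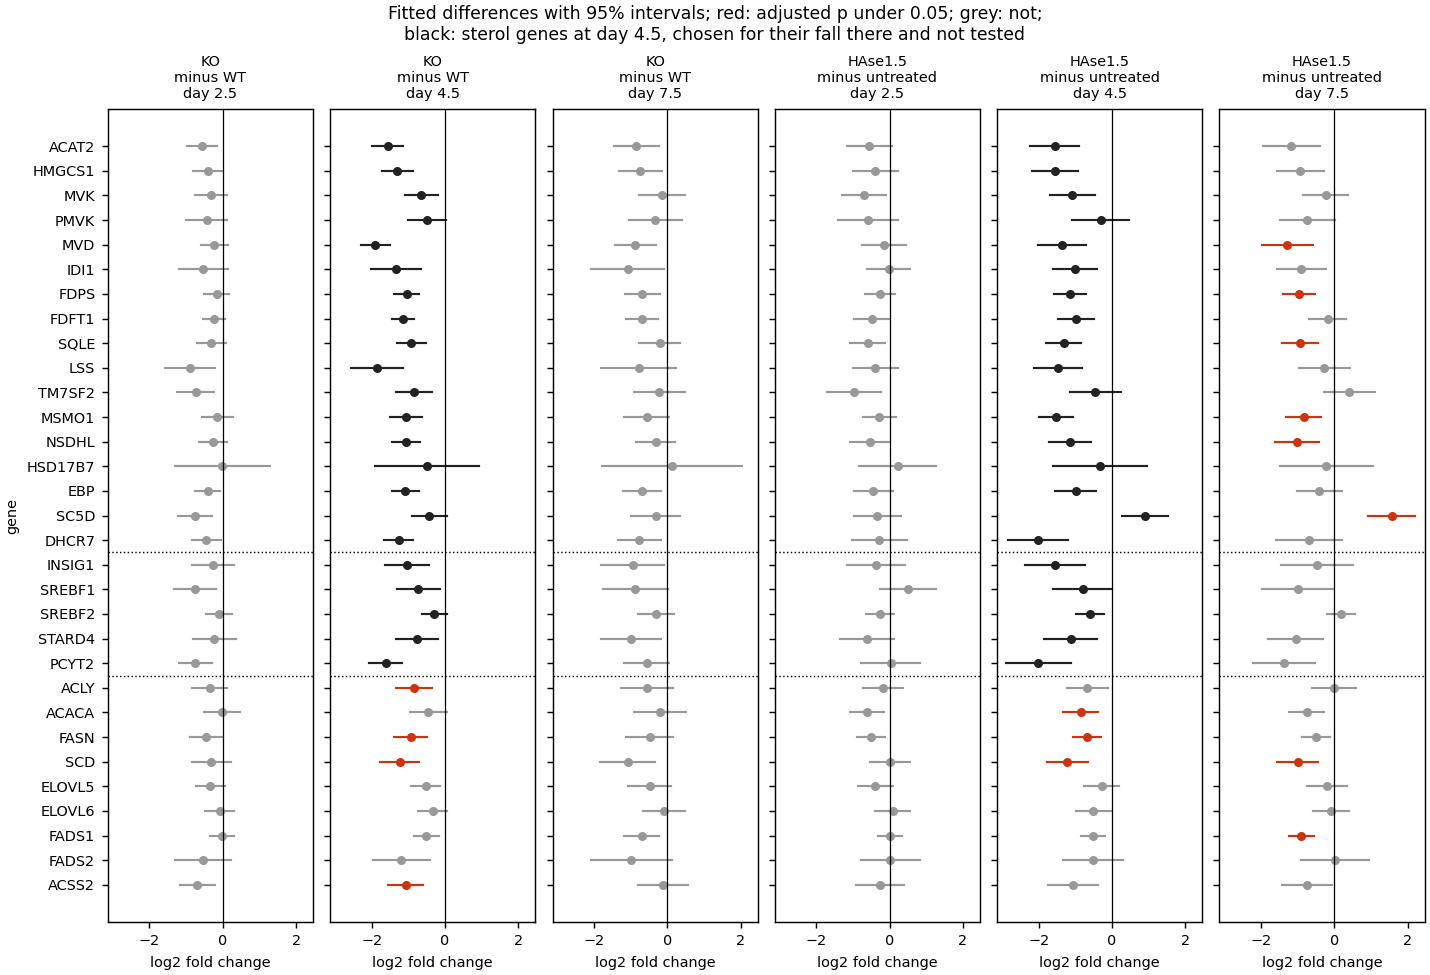
Fitted log2 fold changes of 31 genes (points) with 95% intervals (lines) for KO minus WT and HAse1.5 minus untreated at days 2.5, 4.5 and 7.5; red marks an adjusted p under 0.05 and black the sterol genes at day 4.5, which were chosen on those contrasts and are not tested. At day 2.5 of KO minus WT all 31 points lie below 0, and SC5D is the 1 red point above 0 (HAse1.5, day 7.5).

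A day after hyaluronidase was started at day 1.5, no member passed the test. At day 2.5, 0 of 22 sterol and 0 of 9 fatty acid genes passed (1.15% of all 12748 genes did in either direction, edgeR), DESeq2 called 0, and 4 sterol and 2 fatty acid genes had an unadjusted p under 0.05, beside 9.22% of all genes. The fitted difference was negative in 19 sterol genes (median -0.39) and 5 fatty acid genes (median -0.18). All 3 treated libraries lay below all 3 untreated ones in 7 of 22 sterol and 3 of 9 fatty acid genes (ACACA, FASN and ELOVL5), against 7.39% of all genes. FASN was at 1050, 1107 and 1189 CPM untreated and at 630, 1036 and 676 with the enzyme, a log2 difference of -0.52 ± 0.18 (adjusted p = 0.258, edgeR). Within the lines TNNI1, WT and TNNT2, 21, 17 and 17 of 22 sterol genes were lower. For these counts by sign, over all lines or within a line, the share of all genes is not given here, so they are a description. Without HAse1.5 replicate 2 of this day, 1 fatty acid gene passed. Cardiomyocyte markers were at 2730 to 3690 CPM untreated and 1310 to 1480 with the enzyme (0 of 8 called), and early mesoderm markers at 72.8 to 130 and 207 to 396 (0 of 3 called), and their part was not tested.

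At day 4.5 of HAse1.5, the contrast on which the sterol genes were also picked, 15 of 22 were lower (median -1.14), beside 2.41% of all genes. Leaving out 1 of these 6 libraries at a time gave 7 to 11, with 7 without replicate 1 of either group, 8 without HAse1.5 replicate 3 and 10 without HAse1.5 replicate 2. DHCR7 was at 92.7, 89.3 and 84.2 CPM untreated and 15.3, 26.7 and 23.9 with the enzyme, and SQLE at 309, 266 and 234 and at 118, 122 and 83.9. SC5D, the enzyme just before DHCR7, was at 338, 310 and 268 CPM untreated and 432, 776 and 500 with the enzyme, so that all treated libraries were higher (0.90 ± 0.30). In the fatty acid branch 3 of 9 genes fell and 0 rose (median -0.67). SCD was at 865, 857 and 837 CPM and at 422, 383 and 297 (-1.21 ± 0.27, adjusted p = 0.00928, edgeR), FASN at 497, 515 and 596 and at 355, 316 and 337 (-0.67 ± 0.18, adjusted p = 0.0423), and ACACA, acetyl-CoA carboxylase, at 128, 136 and 106 and at 53.94, 89.97 and 61.1 (-0.86 ± 0.23, adjusted p = 0.0338). The groups did not overlap in these 3 genes. The count was 0 when the third HAse1.5 library was dropped, and 1 when the first or the second untreated library was. Of 43 other pathway genes tested 6 fell, among them HACD1 (-2.10 ± 0.28, adjusted p = 0.000141, edgeR). Cardiomyocyte markers were at 22100 to 44500 CPM untreated and 4720 to 17700 with the enzyme, with 6 of 8 lower. Their part in the lipid genes' fall was not tested.

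HAse2.5 at day 4.5 is set against the same untreated libraries on which the sterol genes were picked, so their values are again a description: 2 of 22 had an adjusted p under 0.05 and a lower value (ACAT2 and MSMO1, median -0.98), beside 0.149% of all genes, from which nothing is read. That count was 0 without untreated replicate 1 or any 1 HAse2.5 library, and 1 without untreated replicate 3. None of the 9 fatty acid genes passed by edgeR and 2 by DESeq2, with a median of -0.70. At an unadjusted p under 0.05 there were 7 of them, beside 7.02% of all genes. SCD was at 540, 459 and 400 CPM and FASN at 314, 348 and 304, both wholly below the untreated libraries, as were 8.51% of all genes. HMGCS1 was at 287, 291 and 327 CPM, against 260, 272 and 237 in HAse1.5. SC5D was at 616, 517 and 467 CPM, again wholly above untreated, as were 7.82% of all genes. TMEM97 was the 1 pathway gene called (-1.52 ± 0.26, adjusted p = 0.00801, edgeR). These cardioids held cardiomyocyte markers at 16300 to 30000 CPM, overlapping the untreated range, and 0 of 8 passed. Set against each other at day 4.5, HAse1.5 and HAse2.5 differed in no member (edgeR and DESeq2 both 0), beside 0.361% of all genes in either direction. An unadjusted p under 0.05 was found in 3 sterol and 0 fatty acid genes, beside 9.65% of all genes. The medians of that difference were -0.26 and -0.08. The HAse1.5 libraries of day 4.5 belong to the contrast on which the sterol genes were picked. The sterol counts and median of this comparison are therefore a description. The 2 enzyme groups share the untreated libraries, so their likeness against them is no separate result.

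By day 7.5 of HAse1.5 sterol genes moved both ways. MVD, FDPS, SQLE, MSMO1 and NSDHL fell, 5 of 22 beside 1.92% of all genes, and SC5D rose, 1 of 22 beside 1.41% of all genes. SC5D was at 203, 230 and 103 CPM untreated and at 783, 532 and 274 with the enzyme. Every treated library exceeded every untreated one, by a fitted log2 difference of 1.56 ± 0.31 (adjusted p = 0.00556, edgeR). This call held in 9 of 10 alternatives, with values of 1.17 to 1.88, and was lost without HAse1.5 replicate 1 (adjusted p = 0.059). MSMO1 and NSDHL take methyl groups off the sterol ring. The 5 genes that fell had log2 differences from -1.29 ± 0.34 (MVD) to -0.84 ± 0.23 (MSMO1). MVD was at 37.6, 32.3 and 50.9 CPM untreated and 7.94, 22.2 and 18.7 with the enzyme, and FDPS, farnesyl diphosphate synthase, at 152, 149 and 187 and at 71.5, 75.1 and 105. HMGCS1 (-0.93), DHCR7 (-0.69) and INSIG1 (-0.47) did not pass, and INSIG1 was at 14.1, 33.0 and 10.5 CPM untreated and 12.7, 25.7 and 4.16 treated. Leaving out 1 library at a time gave 0 to 5 sterol calls in place of 6, namely 0 when the first HAse1.5 library was dropped, 2 when the first untreated library was and 3 when the second HAse1.5 library was.

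In the fatty acid branch at day 7.5 of HAse1.5, the desaturases SCD (-1.004 ± 0.27, adjusted p = 0.0428) and FADS1 (-0.91 ± 0.16, adjusted p = 0.00209, edgeR) fell and no gene rose. FADS1 was at 339, 294 and 318 CPM untreated and 139, 202 and 166 with the enzyme, without overlap, and its call held in all 10 alternatives. SCD was at 260, 340 and 200 CPM and at 157, 172 and 70.0, also without overlap, and its call was lost in 4 of 10 alternatives. FADS2, the neighbour of FADS1 on the opposite strand, was at 27.28, 56.76 and 16.97 CPM untreated and 53.2, 41.01 and 10.4 treated, with a log2 difference of 0.01 ± 0.45. Across the branches, all treated libraries lay below all untreated ones in 8 of 22 sterol and 5 of 9 fatty acid genes, against 8.95% of all genes. HACD1 (-1.31 ± 0.27) and TMEM97 (-1.28 ± 0.27) were the pathway genes that passed. Cardiomyocyte markers were at 60900 to 74300 CPM untreated and 28800 to 33100 treated (3 of 8 lower), cell cycle markers at 830 to 1470 and 285 to 738 (2 of 8 lower). Endoderm and liver-type markers, cells that also make lipids, were at 106 to 450 CPM untreated and 41.7 to 79.7 treated (2 of 5 lower, AFP and APOB), and mitochondrial counts were 0.902% to 2.39% and 0.426% to 1.11% of the total. The part of these measures in the lipid genes' values was not tested.

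For treatment from day 2.5, collected at day 7.5, MVD was the 1 sterol gene called, at 16.9, 14.7 and 13.1 CPM (-1.43 ± 0.34, adjusted p = 0.0466, edgeR), beside 0.314% of all genes that were lower. The call was lost on leaving out any library but untreated replicate 2. In the same contrast 1 of 8 cardiomyocyte markers (MYH7, -2.37) and 2 of 5 endoderm and liver-type markers (AFP and APOB, each with at most 3 counts in a treated library) were lower and 0 of 8 cell cycle markers passed. Endoderm and liver-type markers summed to 44 to 88.9 CPM against 106 to 450 untreated, cardiomyocyte markers to 36600 to 63600 against 60900 to 74300, and their part was not tested. The sterol median was -0.13, and in the fatty acid branch (median -0.32) 0 genes passed by edgeR and 1 by DESeq2. There 1 gene had an unadjusted p under 0.05, beside 13.5% of all genes. HMGCS1 was at 203, 213 and 198 CPM and SC5D at 365, 392 and 346, the latter wholly above untreated (1.04 ± 0.31, adjusted p = 0.139). Between HAse1.5 and HAse2.5 at day 7.5 no member passed by edgeR, beside 0.00784% of all genes, and DESeq2 called 1 sterol gene. At an unadjusted p under 0.05 there were 4 sterol and 2 fatty acid genes, beside 5.64% of all genes. The medians were -0.42 and -0.25.

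Direct tests of the change of the HAse1.5 difference from day 2.5 to day 7.5 called 2 members, beside 1.13% of all genes in either direction. SC5D turned from -0.34 to 1.56, a change of 1.91 ± 0.44 (adjusted p = 0.0341), and FADS1 from 0.02 to -0.91, a change of -0.92 ± 0.23 (adjusted p = 0.046, edgeR). Both calls depended on single libraries: leaving out 1 library at a time ended that of SC5D in 8 of 12 cases and that of FADS1 in 10 of 12. The call of SC5D held only without replicate 2 of either untreated group or replicate 3 of either HAse1.5 group, and that of FADS1 only without replicate 2 of either group of day 7.5, with values of 1.52 to 2.22 and -1.07 to -0.79 over all alternatives.

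**Figure D4:**
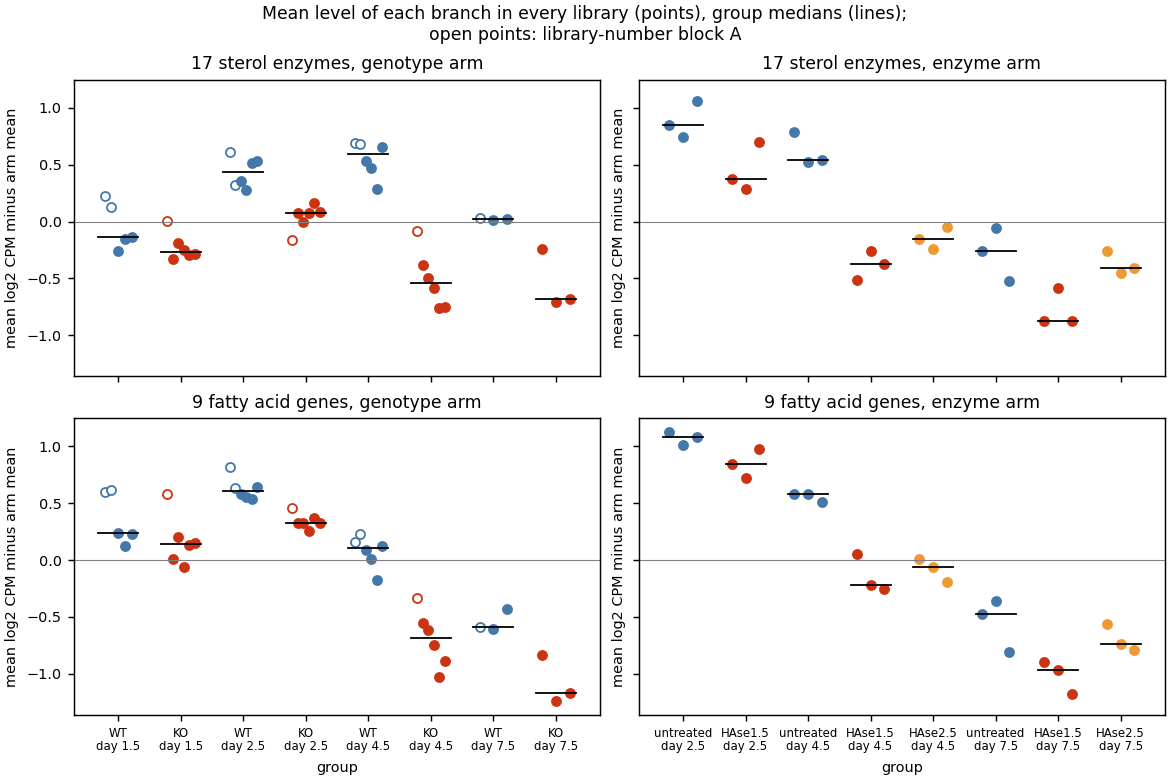
Mean log2 CPM of 17 sterol enzymes (top) and 9 fatty acid genes (bottom), minus the mean over the arm, in every library (points) with group medians (lines); open points mark block A. The sterol mean runs from 0.29 to 0.69 in WT and from -0.76 to -0.08 in KO at day 4.5, while the fatty acid mean falls from day 2.5 on in every condition.

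Summed up as the mean of 17 sterol enzymes, the order of the groups differed between the branches. In the genotype arm the sterol mean was highest in WT at day 4.5 (0.56 ± 0.16, SD, n = 6) and at day 2.5 (0.43 ± 0.14, n = 6), neighbours that overlapped, and lowest in KO at day 7.5 (-0.54 ± 0.26, n = 3) and day 4.5 (-0.51 ± 0.26, n = 6), which overlapped too. The fatty acid mean was highest in WT at day 2.5 (0.63 ± 0.10, n = 6) and lowest in KO at day 7.5 (-1.08 ± 0.22, n = 3). In the enzyme arm both means were highest in untreated cardioids of day 2.5 (0.89 ± 0.16 and 1.07 ± 0.06, n = 3) and lowest in HAse1.5 of day 7.5 (-0.78 ± 0.17 and -1.01 ± 0.15, n = 3). These orders at day 4.5 rest in part on how the sterol genes were chosen.

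The members also varied together among libraries of the same group, after the group mean was taken off, which removes the differences that chose them. Over 65 libraries the median Pearson r of a sterol enzyme with the mean of the other 16 was 0.45, that of the regulators 0.25 and that of the fatty acid genes 0.39, against 0 for 12535 other genes, of which 2.39% exceeded 0.5. ACAT2 (0.72), EBP (0.68), SCD (0.66) and HMGCS1 (0.62) followed the mean most closely, while HSD17B7 (-0.42), ACACA (-0.21), FADS1 (-0.13) and NSDHL (-0.12) did not. Without block A, over 55 libraries, the medians were 0.37, 0.23 and 0.24, HSD17B7 was at -0.08, ACACA at 0.17 and FADS1 at 0.21, and 0.81% of other genes exceeded 0.5. SREBF1 was at 0.28 in the genotype arm and -0.65 in the enzyme arm. The mean of the 9 fatty acid genes had r = 0.72 with the sterol mean over the same residuals (0.63 without block A). Beside these, cell cycle markers had r = -0.51 (-0.34 without block A), cardiomyocyte markers 0.43 (0.41), the log2 total count 0.47 and the share of mitochondrial counts -0.47, all descriptions over shared libraries.

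**Figure D5:**
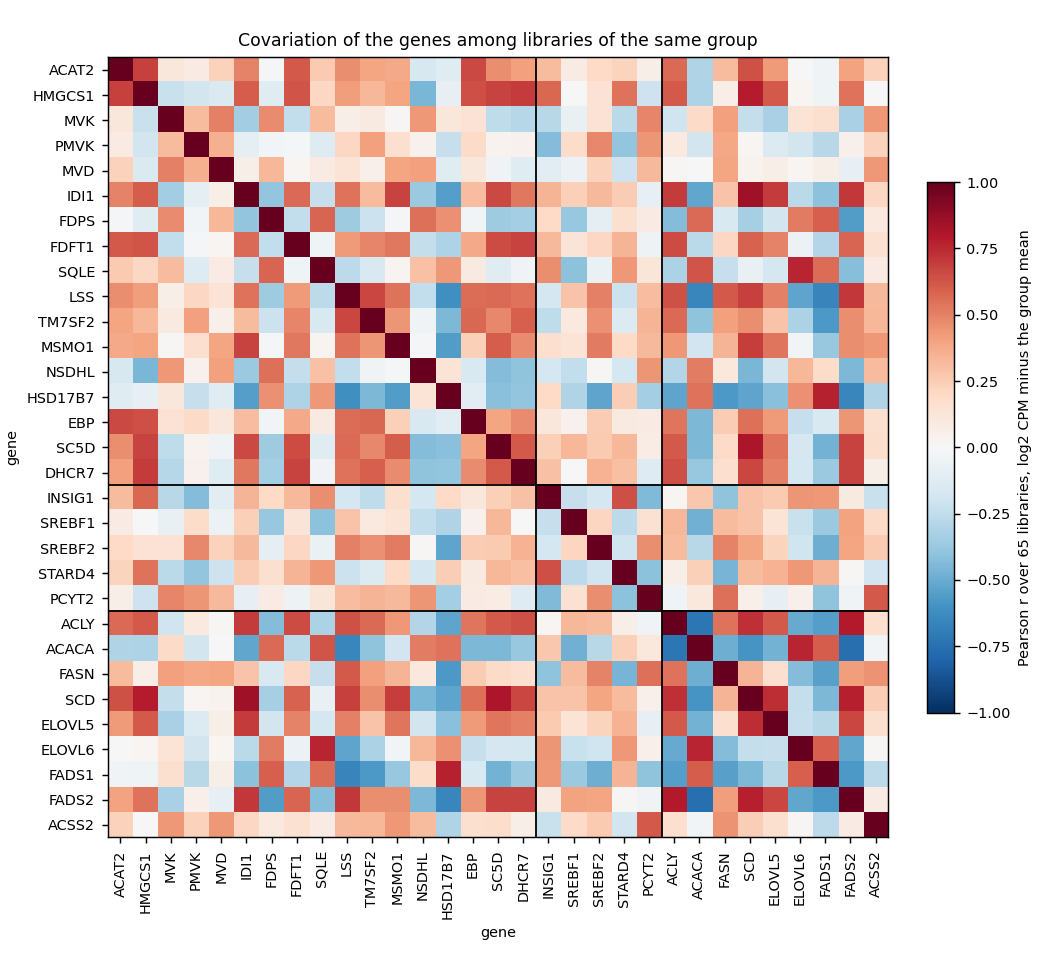
Pearson r between the 31 genes over 65 libraries after subtraction of each group's mean log2 CPM; black lines part sterol enzymes, sterol regulators and partners, and fatty acid genes. HSD17B7, FADS1 and ACACA form pale or blue stripes, and without block A their r with the sterol enzyme mean is -0.08, 0.21 and 0.17.

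Among the genes outside the list whose residuals most resembled the sterol mean were COX6B1 (0.75), RNF10 (0.74), COX5A (0.70), POMP (0.69), CBX6 (0.67) and UQCRB (0.67), of which COX6B1, COX5A and UQCRB encode respiratory chain subunits. These were ranked over 12535 genes and 65 libraries. Without block A, COX5A had r = 0.68, COX6B1 and RNF10 had 0.67 and CBX6 had 0.64, and POMP and UQCRB fell to ranks 29 and 63.

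Several members share exon sequence with neighbours, and the strand setting of the counting is not given in the sources used here. FADS1 and FADS2 overlap on opposite strands of chromosome 11, ACAT2 overlaps TCP1 and SOD2, MVK overlaps MMAB, SREBF1 overlaps RAI1 and PCYT2 overlaps ANAPC11, so reads of these pairs may be mixed. FDPS has 8 pseudogenes by name, HSD17B7 has 2 and SCD and FADS2 have 1 each, and how reads shared with such copies were counted is not given either. Among members not yet described, IDI1, which isomerises isopentenyl diphosphate, and LSS, which closes the sterol rings, fell in untreated cardioids from day 4.5 to day 7.5, by 1.28 and 1.30 on the log2 scale. ELOVL6, the elongase of palmitate, was called in none of the 18 comparisons with every library. Without block A it fell in KO at day 4.5 and in WT from day 4.5 to day 7.5, by 0.64 and 0.89. LSS had the lowest fitted value of the sterol branch in KO at days 1.5 and 2.5 (-0.71 ± 0.35 and -0.89 ± 0.34), and in WT at day 2.5 it was at 147 and 177 CPM in block A and 52.2 to 72.2 elsewhere. Without block A its log2 difference at day 2.5 was -0.24 ± 0.18, and its KO values of 45.7 to 62.3 CPM overlapped those of WT.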

How the data were processed

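RNA was taken from pools of 8 cardioids from day 2.5 on and from cells not yet aggregated at day 1.5. The libraries sequenced were 3′-end libraries. Per the submitters' processing notes, the authors used featureCounts from Subread 1.6.2 and the build hg38 (GRCh38), and they deposited raw counts per gene. The aligner and strand setting are not given in the sources used here. A further 4 columns matched no listed sample and were not used, and the untreated day 2.5 columns were matched through the sample titles.

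The arms were analysed apart in edgeR 4.0.16 (R 4.3.3, limma 3.58.1) with TMM scaling, a filter on low counts (filterByExpr, minimum count 10), 1 mean per group and the robust quasi-likelihood test, Benjamini-Hochberg adjusted over all genes tested, threshold 0.05. SE is the log2 fold change divided by the square root of F. Log2 CPM used a prior count of 2. The test was tried on simulated data. Total counts of 831062 to 3574843 per library limit the precision of genes with few counts. Alternatives were RLE scaling, no filter, DESeq2 1.42.0, a replicate block and leaving out each library, and, chosen after seeing the data, block C alone and block A left out.

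The members, lists and rules were chosen with earlier results of these data known. Values per library are given for HMGCS1, SQLE, DHCR7, INSIG1, FASN, SCD and ACSS2 and for the called member of each branch with the largest change in a tested comparison. Other genes were named as the called pathway gene with the largest change in a comparison and as the 8 most alike by residual r, and some genes these rules name are not reported here. SC5D, FADS1, FDPS, MVD, LSS, TMEM97 and further genes were also described after their values were seen, as was the SREBF2 promoter. Replicate numbers of the enzyme arm mark shared lines: residuals of same-numbered libraries had r over 0.1 in 15 of 21 pairs (-0.102 to 0.467), those of others in 5 of 42. KO libraries include several of clone cl4, so p-values measure the spread between these libraries, which may in part be technical. Chi-square per degree of freedom was 2.07 to 71.8 in 115 replicate pairs, so none were counted as 1 sample. Gene levels are not compared between genes.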

Additional observations from a re-analysis of the deposited data

Results flagged for a closer look

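In 4 of 54 value sets of 4 to 10 libraries, 1 library lay far from its group by Dixon's criterion, where chance gives about 5%. In KO at day 1.5, DHCR7 was lowest in cl14_R1, at 5.28 log2 CPM with the next at 6.15, and FASN was highest in cl4_R1, at 10.96 with the next at 9.81. INSIG1 was lowest in WT_TU_R1 of WT at day 2.5 (6.22, next 6.86), and SQLE was lowest in cl4_R1 of KO at day 2.5 (6.66, next 7.6). The cl4_R1 libraries and WT_TU_R1 belong to block A.

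The effect of hyaluronidase from day 1.5 was called different between day 2.5 and day 7.5 in SC5D, by 1.91 on the log2 scale, and in FADS1, by -0.92. Both were tested as a difference of differences in edgeR. Both calls depended on single libraries: leaving out a single library ended each of them in most cases, as given above.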

How the results depend on the processing

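No count, median or fold change reversed under these alternatives, whereas the residual r of some members changed sign without block A. That of ACACA turned from -0.21 to 0.17 and that of FADS1 from -0.13 to 0.21. The other way went PMVK (0.12 to -0.13), MVK (0.14 to -0.02) and SREBF1 (0.001 to -0.24). Without the filter on low counts, calls were 1 fatty acid gene for WT day 1.5 to 2.5, 1 sterol gene for WT day 4.5 to 7.5, 1 sterol gene for HAse1.5 at day 2.5, 3 fatty acid genes for HAse2.5 at day 4.5, 4 sterol genes for HAse2.5 at day 7.5, 2 sterol genes between HAse1.5 and HAse2.5 at day 7.5, and 2 of each branch for the change of the HAse1.5 difference. DESeq2 called 6 sterol genes for WT day 4.5 to 7.5, 2 fatty acid genes for HAse2.5 at day 4.5, 1 at day 7.5, and 1 sterol gene between the enzyme groups at day 7.5. Without block A, calls were 8 fatty acid genes in KO at day 4.5, 2 sterol and 1 fatty acid gene at day 7.5, 4 fatty acid genes for WT day 1.5 to 2.5, 8 sterol and 4 fatty acid genes for WT day 4.5 to 7.5, and 1 fatty acid gene for the change of the KO difference.

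With the library-number block (A, B or C) as a replicate block in the genotype arm, where R1 and R2 of WT, WT_TU and cl4 are blocks A and B, calls were 1 sterol and 1 fatty acid gene in KO at day 7.5, 9 and 4 for WT day 4.5 to 7.5, and 1 fatty acid gene for the change of the KO difference. Residuals of same-numbered libraries there had r over 0.1 in 9 of 13 pairs (-0.074 to 0.787) and those of others in 1 of 12, a hint from the data and not from the design. The line block of the enzyme arm gave 16 sterol calls for HAse1.5 and 3 for HAse2.5 at day 4.5 and moved no other count of calls by over 1.5 times.

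Leaving out 1 library at a time gave sterol counts of 0 to 1 in KO at day 7.5 (1 without cl4_R2), 1 to 4 for WT day 4.5 to 7.5, 7 to 11 for HAse1.5 at day 4.5, 0 to 5 at day 7.5, 0 to 2 for HAse2.5 at day 4.5 (median -1.02 to -0.73), 0 to 1 at day 7.5, 3 to 6 and 6 to 10 for the untreated steps, and 0 to 1 for the change of the HAse1.5 difference. Fatty acid counts were 1 to 2 for WT day 1.5 to 2.5, 0 to 1 for day 4.5 to 7.5, 0 to 1, 0 to 3 and 1 to 3 for HAse1.5 at days 2.5, 4.5 and 7.5, and 0 to 1 for the change of its difference. Of all genes, 516 were called in KO at day 4.5 against 254 without the filter, 829 with the block and 178 in block C alone, and 48 at day 7.5 against 115 with the block and 145 without block A. For HAse1.5 at day 7.5 it was 425 against 713 without the filter. The cause was not tested.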
